A study of Homo sapiens with 9 samples.

Results

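DNA replication and G1/S genes were followed as a set of 50 members, all of them found among the 18143 genes of the files. The members were listed by name and function. They comprise 6 subunits of the origin recognition complex, 3 licensing factors, 8 MCM proteins, 7 factors that build or activate the replicative helicase, 8 DNA polymerase and primase subunits, 9 genes of the sliding clamp, its loader and RPA, 2 genes of Okazaki fragment maturation, 4 genes of nucleotide supply, and the 3 G1/S genes CCNE1, CCNE2 and CDC25A. The RNA came from the human lung adenocarcinoma line A549, harvested 48 h after transfection with a scrambled siRNA (Scramble), with SiREV1#1 or with SiREV1#2, the latter 2 both directed at REV1. Each group has 3 libraries with the replicate numbers 1, 2 and 3, and all 9 come from 1 cell line. The labels do not say whether replicates were separate cultures. The study's methods speak of independent repeats for its in vitro work in general, without naming these libraries, so p-values measure the spread between these libraries, which may be technical. REV1 encodes a translesion DNA polymerase, and the comparison of each siRNA with Scramble asks which transcripts differ when it is depleted.

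Before S phase, the origin recognition complex, CDC6 and CDT1 load the MCM2 to MCM7 ring onto DNA as an inactive helicase. Kinases including CDC7 with DBF4 then help CDC45 and the GINS complex to join the ring, after which primase and the DNA polymerases copy the strands with the help of the PCNA clamp and the single-strand binding protein RPA. Many of these genes are transcribed in late G1 and S phase under E2F transcription factors, so that their summed RNA in a culture moves with the share of cells in these phases. In bulk RNA, fewer cells in such a phase and less RNA per cell cannot be told apart.

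REV1 itself had an FPKM (fragments normalised to transcript length and library size) of 7.23, 7.9 and 8.44 in the Scramble libraries, 2.6, 2.92 and 3.36 after SiREV1#1, and 3.62, 3.36 and 3.18 after SiREV1#2, with no overlap between Scramble and either siRNA. With the replicate number as a block, it fell by 1.26 on the log2 scale after SiREV1#1 and by 1.27 after SiREV1#2 (edgeR adjusted p = 0.00165 and 0.00989). Total counts were between 13059082 and 20166451 per library, lowest in SiREV1#1 replicate 1. The count column of SiREV1#2 replicate 3 repeats that of replicate 2 and was counted once, so count tests hold 8 libraries and FPKM comparisons 9. Replicate 1 differed in counts from its group's other replicates by a chi-square of 210.0 to 314.0 per degree of freedom. Between replicates 2 and 3 this was 6.1 in Scramble and 2.43 in SiREV1#1, so replicate 1 stood apart in these groups. For SiREV1#2 counts allow only replicate 1 against 2 (314.0), as replicate 3 has no counts of its own. The keratin genes KRT8 and KRT18 and the A549 genes ALDH1A1, AKR1C1 and NQO1 were expressed and CDKN2A, deleted in this line, was at most at 0.73 FPKM, while KRT19 and EPCAM were low.

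Most members were lower after either siRNA than in the same-numbered Scramble library. After SiREV1#1, 37 of 50 members were lower in all 3 same-numbered pairs, where 35.5% of the 11429 genes with a mean FPKM over 1 were. After SiREV1#2, 36 of 50 were lower in all 3 pairs, against 29.7% of genes. The median log2 ratio of the members, taken on FPKM + 0.1, was -0.82, -0.41 and -0.38 in pairs 1, 2 and 3 of SiREV1#1, and -0.22, -0.37 and -0.43 in those of SiREV1#2. Over all genes with a mean FPKM over 1 the same medians were -0.21, -0.03 and -0.02 for SiREV1#1 and -0.05, 0.00 and 0.02 for SiREV1#2. The members thus stood furthest below Scramble in pair 1 of SiREV1#1, whose library also has the lowest median over all genes and the fewest counts, and least far below it in pair 1 of SiREV1#2. In SiREV1#1, 22 members had all 3 libraries below all 3 Scramble libraries, against 13.8% of genes. All 3 were above for 1 of 50 members, against 726 of 11429 genes. In SiREV1#2, 11 were entirely below, against 9.52% of genes. Entirely above were 2 of 50 members, against 756 of 11429 genes. Both siRNAs are compared with the same 3 Scramble libraries. An exact two-sided permutation test of 3 against 3 libraries cannot go below p = 0.1, so for single members it cannot pass 0.05.

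**Figure D1:**
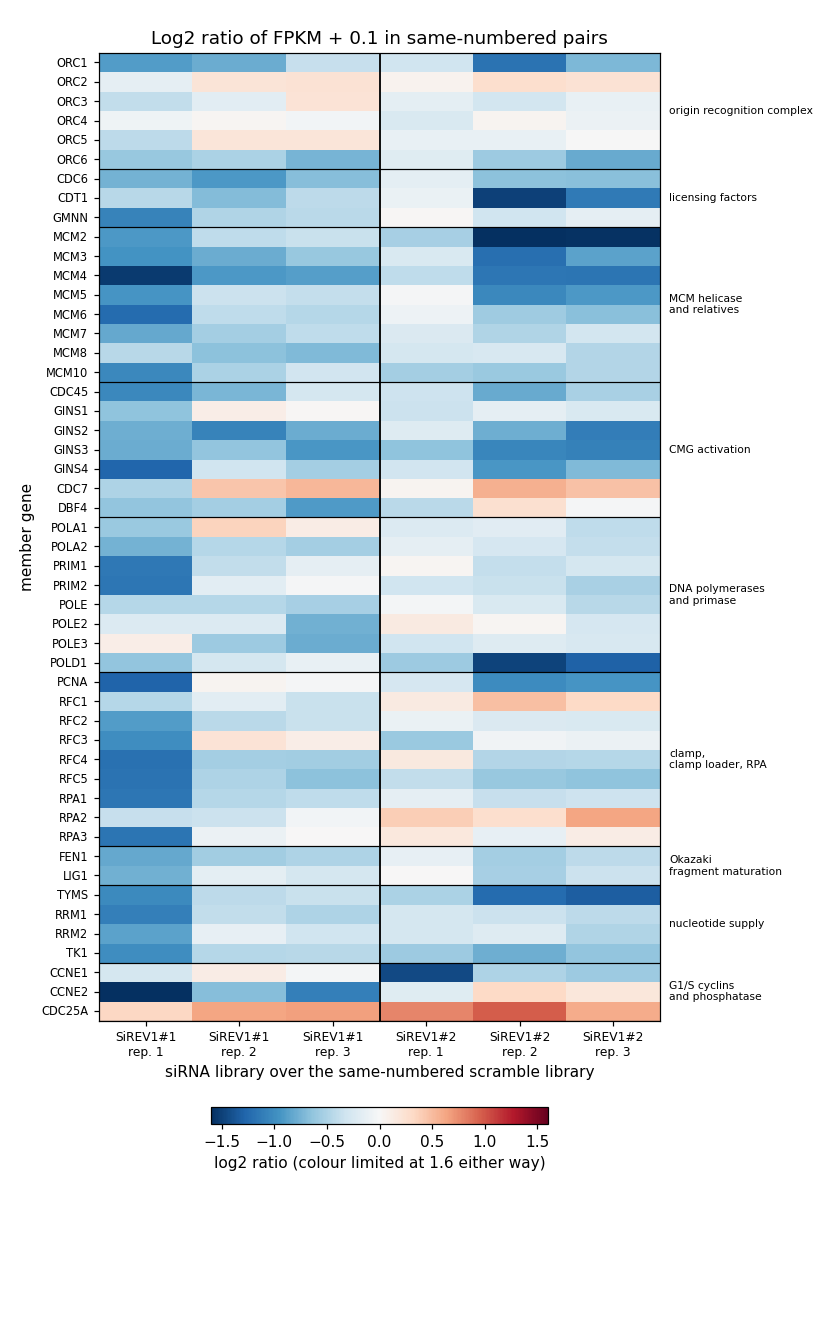
Log2 ratio of FPKM + 0.1 of each siRNA library over the same-numbered Scramble library, for the 50 members (rows, grouped by role) in 3 pairs per siRNA (columns), with blue for lower and red for higher. Blue covers 48 of 50 members in pair 1 of SiREV1#1, and CDC25A is the 1 member that is red in all 6 pairs.

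**Figure D2:**
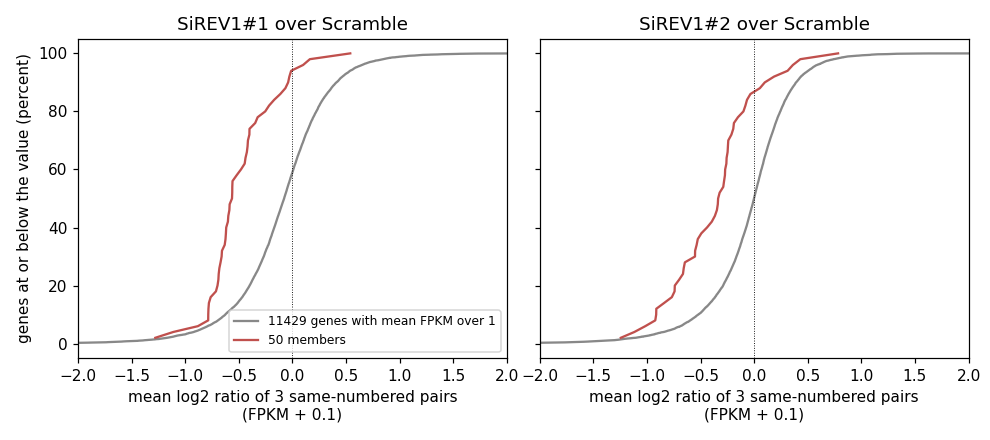
Percent of genes at or below each mean log2 ratio of the 3 same-numbered pairs (FPKM + 0.1), for the 50 members and for the 11429 genes with a mean FPKM over 1, after SiREV1#1 (left) and SiREV1#2 (right). The members' medians are -0.56 and -0.33, those of all genes -0.08 and -0.00.

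In the count test without the replicate number (edgeR quasi-likelihood, adjusted p under 0.05 over 14205 genes), 0 of 50 members passed for SiREV1#1, where 0.296% of genes passed in either direction, 0 for SiREV1#2, where 0% passed, and 0 between the siRNAs, where 0.676% passed. At an unadjusted p under 0.05 in this edgeR test, 11, 3 and 2 members passed, where 9.75%, 5.48% and 12.4% of genes did. DESeq2 called 1, 0 and 1 members, against 2.92%, 1.03% and 4.64% of genes. In these count tests replicate 1 makes up a larger share of the SiREV1#2 libraries than of the other groups. Without the block the SiREV1#2 values therefore lean more on replicate 1. The members' median log2 fold change after SiREV1#2 was -0.14 in this edgeR test and -0.25 with the counts as deposited. The replicate numbers come from the labels, and all 9 same-numbered library pairs deviated from their group means together. Each test was therefore also run with the replicate number as a block. With replicate 1 far apart, such deviations cannot show that replicates 2 and 3 are paired. The differences between replicates 2 and 3 correlated by only -0.163 to 0.135 between groups. With the block, 11 members fell and 1 rose after SiREV1#1, where 6.96% of genes fell and 5.32% rose. SiREV1#2 raised 1 member, CDC25A, and lowered 0, where 0.493% of genes rose and 1.41% fell. Under the block, 14 members had an unadjusted p under 0.05 for SiREV1#2 in edgeR, where 18.1% of genes did, and DESeq2 called 5, where it called 4.62% of genes. Between the siRNAs 4 members differed with the block, a smaller share than the 17.6% of genes that did.

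FPKM exists for all 9 libraries, and limma-trend on log2(FPKM + 0.1) with the same block called more members. After SiREV1#1 20 of 49 fell, against 13.6% of genes, and CDC25A rose. After SiREV1#2 7 of 49 fell, against 7.61% of genes, and CDC25A and RPA2 rose. The 7 are MCM2, GINS2, GINS3, POLD1, TYMS, TK1 and CCNE1. With replicates 2 and 3 alone, limma-trend called 34 of 49 members lower after SiREV1#1 and 36 of 49 after SiREV1#2, where 30.9% and 26.6% of genes were called lower. Replicates 2 and 3 lie so close together that these shares are high for all genes. Leaving out single libraries moved the block counts widely. In edgeR the SiREV1#1 count was 0 without Scramble replicate 1, without Scramble replicate 3 or without SiREV1#1 replicate 3. Of all genes 400 of 14086, 327 of 14158 and 333 of 14125 passed there. The count was 1 without Scramble replicate 2 and 4 without SiREV1#1 replicate 2, where 323 of 14158 and 971 of 14142 genes passed. It reached 19 without SiREV1#1 replicate 1, where 3432 of 14118 genes passed.

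**Figure D3:**
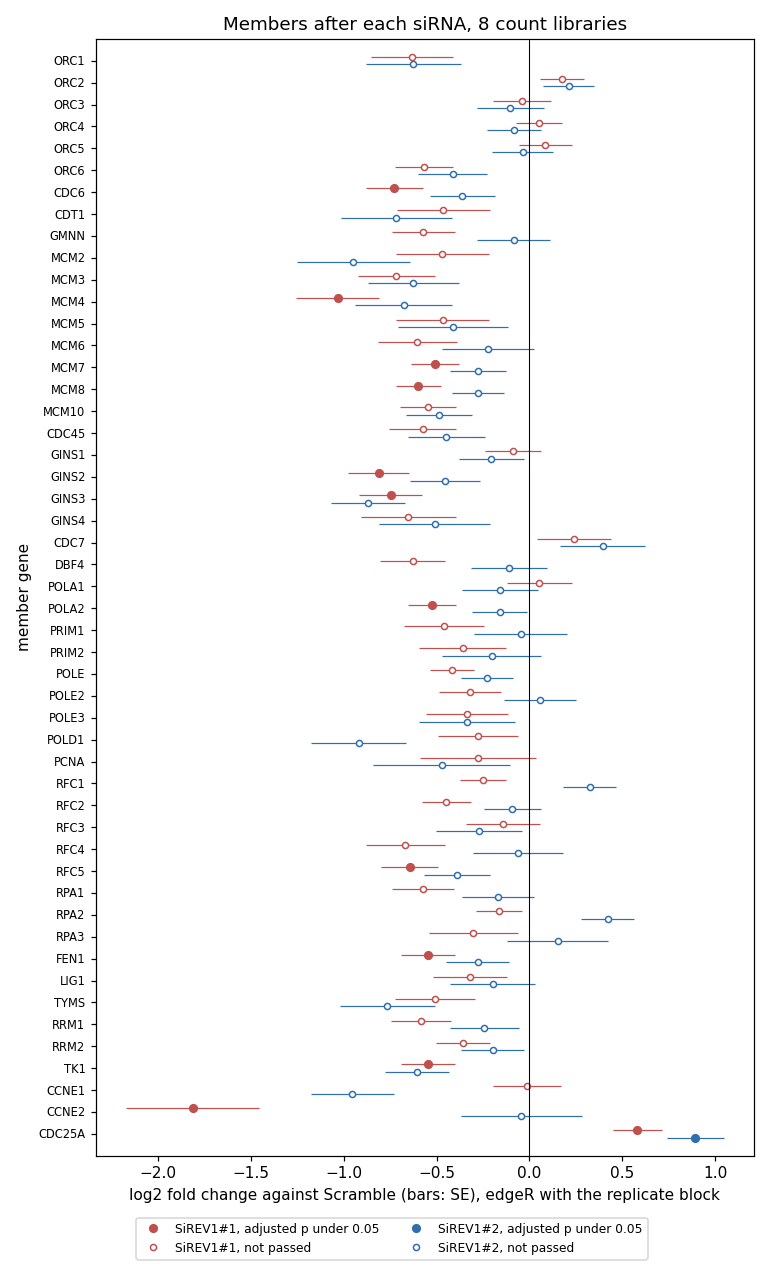
Log2 fold change of each member against Scramble (points) with its standard error (bars), from edgeR with the replicate block on 8 count libraries; filled points passed an adjusted p of 0.05. Filled points are 12 for SiREV1#1 and 1 for SiREV1#2, and most open points also lie left of 0.

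The members' promoters were searched for E2F words. Many members are known E2F targets, so a higher share than among other genes is no independent finding. The E2F consensus was searched as TTTCCCGC, TTTCGCGC, TTTGCCGC or TTTGGCGC on either strand, from 250 bases before to 50 after the start of each gene in RefSeq (GRCh38.p14). Of the 44 members with a promoter in that table, 20 held such a word, or 45.5%, against 5.67% of 9416 genes with a mean FPKM over 1 and 3.33% of all 27305 promoters. CCAAT was found in 52.3% of the members and 37.1% of the expressed genes, and TTTGAA, a word of cell cycle promoters of the G2/M genes, in 4.55% and 9.41%. MCM4, MCM5, GINS4, RPA2, RPA3 and CCNE2 are the other 6 members. A match is a description of the letters and not a site. The stretches below show the match, in capitals, on the strand of the gene, for MCM2, MCM3 and MCM7 of the helicase ring, for CDC6, GINS2 and POLE2, which with MCM3 and MCM7 were more than 2-fold higher in replicate 1 of every group, and for PCNA and CDC25A, whose patterns differed from these.
MCM2, chr3:127598402-127598431, plus strand: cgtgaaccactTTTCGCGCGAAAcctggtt
MCM3, chr6:52284728-52284757, minus strand: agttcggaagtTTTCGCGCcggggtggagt
MCM7, chr7:100101388-100101417, minus strand: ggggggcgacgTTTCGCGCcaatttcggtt
CDC6, chr17:40287875-40287904, plus strand: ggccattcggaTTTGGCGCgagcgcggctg
GINS2, chr16:85688967-85688996, minus strand: ctctcgccgtgGCGGGAAAacggcggccgc
POLE2, chr14:49688201-49688230, minus strand: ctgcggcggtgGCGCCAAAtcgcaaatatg
PCNA, chr20:5126663-5126692, minus strand: cagcgtcagggGCGGGAAAaggcgtgcgtt
CDC25A, chr3:48188443-48188472, minus strand: ggtggattccgTTTGGCGCcaactaggaaa
In MCM2 the word lies on both strands in overlapping form. The stretches of GINS2, PCNA and CDC25A lie before the RefSeq start of the gene and the others span it, and MCM3 and MCM7 have a further match upstream.

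After the siRNAs, members with and without the E2F word had medians close to each other. The 20 with the word had a median log2 ratio of -0.54 after SiREV1#1 and -0.34 after SiREV1#2, and the 24 without it -0.59 and -0.30. All 3 pairs were lower for 14 and 17 of the 20, and for 18 and 16 of the 24. In contrast, the median log2 ratio of replicate 1 to replicates 2 and 3 was 0.95 with the word and 0.20 without it. It was 1.17 over the 6 members whose promoters could not be searched, which include MCM4, GINS4 and CCNE2. None of these differences was tested.

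The origin recognition complex, which marks replication origins, was the largest class with median ratios near 0. Its median log2 ratio was -0.07 after SiREV1#1 and -0.14 after SiREV1#2, and 0 of its 6 genes passed with the block in edgeR. That median covers genes that moved unlike each other. ORC1 was lower in all 3 pairs of both siRNAs, with mean log2 ratios of -0.69 and -0.74, although either siRNA group overlapped Scramble. ORC2 was at 18.5, 22.3 and 22.5 FPKM in Scramble, 16.8, 25.7 and 26.5 after SiREV1#1, and 19.3, 26.7 and 26.5 after SiREV1#2. These groups overlapped. ORC6, a small subunit of the complex, was at 10.5, 12.1 and 14.1 FPKM in Scramble, 6.88, 8.48 and 8.36 after SiREV1#1, and 9.2, 8.09 and 8.01 after SiREV1#2. It was the member of the complex whose siRNA libraries all lay below Scramble, and limma-trend with the block called it after SiREV1#1 (log2 fold change -0.62, SE 0.14, adjusted p = 0.0194).

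Of the licensing factors, CDC6, the ATPase that loads MCM rings with ORC, was at 15.7, 5.03 and 4.93 FPKM in Scramble, 9.27, 2.61 and 3.04 after SiREV1#1, and 14.2, 3.15 and 3.07 after SiREV1#2. Each siRNA library was below its same-numbered Scramble library, but replicate 1 of either siRNA exceeded Scramble replicates 2 and 3. With the block CDC6 fell by 0.73 on the log2 scale after SiREV1#1 (SE 0.15, edgeR adjusted p = 0.0218), while after SiREV1#2 its value of -0.36 did not pass (edgeR adjusted p = 0.333). CDT1, the partner of CDC6 in loading, had pair log2 ratios of -0.45, -0.70 and -0.42 for SiREV1#1 and -0.11, -1.50 and -1.13 for SiREV1#2. GMNN, the inhibitor of CDT1, had ratios of -1.07, -0.49 and -0.43 for SiREV1#1 and 0.02, -0.32 and -0.15 for SiREV1#2, with all SiREV1#1 libraries below Scramble.

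All 8 MCM genes were lower in all 3 pairs of both siRNAs. Their summed FPKM was 267, 118 and 111 in Scramble, 135, 81.5 and 79.5 after SiREV1#1, and 224, 69.6 and 68.8 after SiREV1#2. Replicate 1 was the highest library of its group each time, and within each replicate number both siRNAs were below Scramble. With the block 3 of the 8 fell after SiREV1#1 (MCM4, MCM7 and MCM8) and 0 after SiREV1#2.

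MCM4, a ring subunit, was at 40.4, 9.88 and 9.12 FPKM in Scramble, 13.9, 5.16 and 4.91 after SiREV1#1, and 30.4, 4.36 and 4.01 after SiREV1#2. Its value in replicate 1 was so much higher than in replicates 2 and 3 that the groups overlapped, yet all 6 pairs were lower. After SiREV1#1 it fell by 1.03 on the log2 scale (SE 0.22, edgeR with the block, adjusted p = 0.0244). MCM7, the ring subunit with the highest FPKM, was at 86.6, 34.5 and 31.1 in Scramble, 48.9, 23.7 and 23.5 after SiREV1#1, and 73.6, 24.8 and 25.3 after SiREV1#2. Replicate 1 was again the highest library of each group, and MCM7 fell by 0.51 after SiREV1#1 in that test (adjusted p = 0.0429, edgeR). MCM8, which acts with MCM9 in homologous recombination and is no part of the ring, was at 13.5, 11.1 and 11.7 FPKM in Scramble, 9.84, 7.03 and 7.14 after SiREV1#1, and 11.04, 9.24 and 8.43 after SiREV1#2. Here replicate 1 was only slightly above the others, and every siRNA library was below every Scramble library. MCM8 fell by 0.60 after SiREV1#1 (SE 0.12, edgeR with the block, adjusted p = 0.0191).

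For all ring subunits, MCM4 and MCM7 included, the pair with the lowest ratio differed between the siRNAs. MCM2 was at 24.4, 14.1 and 12.8 FPKM in Scramble, 12.9, 10.6 and 10.0 after SiREV1#1, and 16.8, 4.55 and 4.2 after SiREV1#2. SiREV1#1 was furthest below Scramble in pair 1 (log2 ratio -0.91), and SiREV1#2 in pairs 2 and 3 (-1.61 and -1.58). After SiREV1#2 limma-trend with the block called MCM2 (log2 fold change -1.24, SE 0.29, adjusted p = 0.0316), and edgeR with the block did not. The minus-strand exons of other genes cover 23.6% of the exon bases of MCM2, and as the library kit is not stated to keep strand, reads from them cannot be told apart. MCM3 was at 30.2, 10.3 and 9.0 FPKM in Scramble, 15.6, 5.87 and 5.86 after SiREV1#1, and 25.5, 4.4 and 4.93 after SiREV1#2. MCM5 and MCM6 followed, with pair 1 log2 ratios of -0.95 and -1.23 for SiREV1#1 and -0.02 and -0.08 for SiREV1#2. For these 2 subunits all SiREV1#1 libraries, but not all SiREV1#2 libraries, lay below Scramble. Whether the siRNAs differ in pair 1 cannot be tested with 1 library each.

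**Figure D4:**
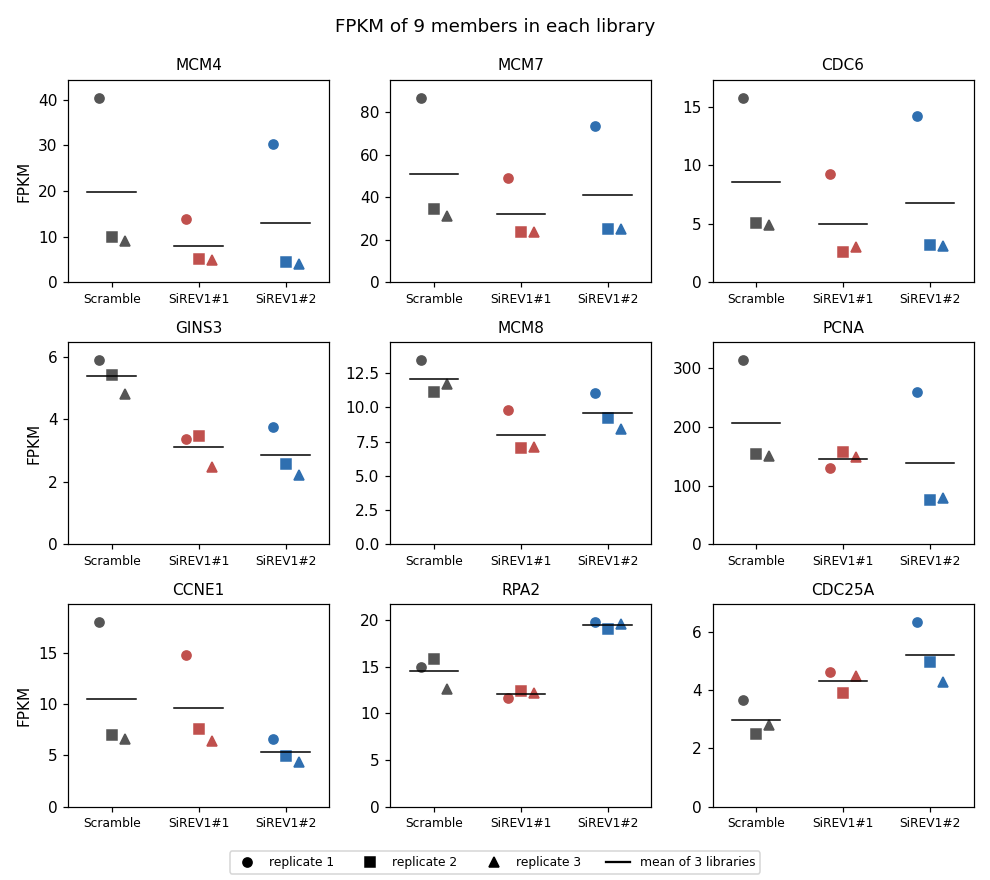
FPKM of 9 members in each of the 9 libraries, by group, with 1 symbol per replicate number and a bar at the mean of 3 libraries. Replicate 1 is the high library of every group for MCM4, MCM7 and CDC6, all 3 Scramble libraries lie above all 6 siRNA libraries for GINS3 and MCM8, and CDC25A is above Scramble in all 6 siRNA libraries.

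CDC45 and the GINS complex turn the ring into an active helicase, and 5 of the 7 genes of this class were lower in all 3 pairs of SiREV1#1, as were 5 in SiREV1#2. GINS2 was at 25.1, 12.8 and 11.8 FPKM in Scramble, 14.6, 6.05 and 6.75 after SiREV1#1, and 21.6, 7.41 and 5.44 after SiREV1#2. Both groups overlapped Scramble through replicate 1, and with the block GINS2 fell by 0.81 after SiREV1#1 (SE 0.16, edgeR adjusted p = 0.0191). GINS3 was at 5.89, 5.41 and 4.82 FPKM in Scramble, 3.37, 3.47 and 2.47 after SiREV1#1, and 3.74, 2.57 and 2.23 after SiREV1#2. Every siRNA library of GINS3 was below every Scramble library, without a shift of replicate 1 as large as that of GINS2. It fell by 0.75 after SiREV1#1 (SE 0.17, edgeR with the block, adjusted p = 0.0281). After SiREV1#2 limma-trend with the block called it at -0.92 (adjusted p = 0.00918). GINS4 was at 8.83, 2.93 and 2.93 FPKM in Scramble, 3.61, 2.32 and 1.97 after SiREV1#1, and 7.14, 1.49 and 1.76 after SiREV1#2. It was lower in all 6 pairs and passed in neither fit with the block.

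CDC7 and DBF4 form the kinase that activates loaded helicases, and they did not move together. CDC7, its catalytic subunit, had pair log2 ratios of -0.49, 0.45 and 0.53 for SiREV1#1 and 0.04, 0.57 and 0.47 for SiREV1#2. DBF4, its regulatory subunit, had ratios of -0.63, -0.54 and -0.90 for SiREV1#1 and -0.43, 0.25 and -0.02 for SiREV1#2. All SiREV1#1 libraries were below Scramble for DBF4, and limma-trend with the block called the difference between the siRNAs (-0.62, adjusted p = 0.0186). Of the 50-base words of the DBF4 transcript, 18.1% also occur in the pseudogene DBF4P1.

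Among the polymerase and primase genes, 6 of 8 were lower in all 3 pairs of either siRNA, and 1 passed in edgeR with the block. POLA2, the second subunit of the polymerase alpha and primase complex that starts each strand, was at 15.1, 17.6 and 17.7 FPKM in Scramble, 8.9, 12.8 and 12.2 after SiREV1#1, and 13.6, 14.5 and 13.5 after SiREV1#2. Every siRNA library was below every Scramble library, and replicate 1 was the lowest in Scramble and SiREV1#1. After SiREV1#1 POLA2 fell by 0.53 (SE 0.13, edgeR with the block, adjusted p = 0.0364), but 54.1% of the 50-base words of its transcript also occur in other annotated genes, so its count is uncertain. POLE2, a subunit of the leading-strand polymerase epsilon, was at 8.84, 2.49 and 3.48 FPKM in Scramble, 7.59, 2.12 and 2.01 after SiREV1#1, and 9.74, 2.54 and 2.87 after SiREV1#2. It varied with the replicate number far more than with the siRNA. POLD1, the catalytic subunit of the lagging-strand polymerase delta, was at 20.2, 11.3 and 9.57 FPKM in Scramble, 12.9, 9.26 and 8.78 after SiREV1#1, and 13.5, 3.98 and 3.86 after SiREV1#2. For POLD1 the SiREV1#2 libraries of replicates 2 and 3 were the lowest, and limma-trend with the block called SiREV1#2 against Scramble (-1.12, adjusted p = 0.0228) and the difference between the siRNAs (0.77, adjusted p = 0.0342).

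PCNA, the sliding clamp, had the highest level of any member, at a mean of 206 ± 93.4 FPKM in Scramble (SD, n = 3). By library it was at 314, 153 and 151 FPKM in Scramble, 129, 158 and 149 after SiREV1#1, and 259, 76.2 and 78.3 after SiREV1#2. SiREV1#1 was below Scramble mainly in pair 1 (log2 ratio -1.28, then 0.04 and -0.02), whereas SiREV1#2 was below it mainly in pairs 2 and 3 (-0.27, then -1.01 and -0.94). With the block PCNA passed for neither siRNA in edgeR (-0.28 and -0.47, adjusted p = 0.611 and 0.568).

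The clamp loader RFC opens PCNA around DNA. RFC5 was at 20.7, 17.3 and 17.8 FPKM in Scramble, 9.07, 12.2 and 11.3 after SiREV1#1, and 15.7, 11.3 and 11.3 after SiREV1#2. All siRNA libraries of RFC5 were below Scramble, and it fell by 0.65 after SiREV1#1 (SE 0.15, edgeR with the block, adjusted p = 0.0331). RFC1, the large subunit, was at 9.3, 12.6 and 14.1 FPKM in Scramble, 6.76, 11.2 and 11 after SiREV1#1, and 10.3, 17.6 and 17.6 after SiREV1#2. Within each replicate number SiREV1#1 was the lowest group and SiREV1#2 the highest. The siRNAs differed by -0.58 (SE 0.14, edgeR with the block, adjusted p = 0.0307), a call lost on leaving out any of 5 of the 8 count libraries.

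RPA coats single-stranded DNA, and its 3 subunits differed. RPA2, the middle subunit, was at 15.0, 15.8 and 12.6 FPKM in Scramble, 11.6, 12.4 and 12.2 after SiREV1#1, and 19.7, 19.1 and 19.6 after SiREV1#2. The groups did not overlap, with SiREV1#1 below and SiREV1#2 above Scramble, and replicate 1 did not stand apart. Neither siRNA passed against Scramble in edgeR with the block (-0.16 and 0.42, adjusted p = 0.437 and 0.174), but the siRNAs differed from each other by -0.58 (SE 0.14, adjusted p = 0.03, edgeR with the block). This call was lost on leaving out any count library but SiREV1#1 replicate 1. RPA1, the large subunit, had pair log2 ratios of -1.15, -0.46 and -0.40 for SiREV1#1 and -0.15, -0.36 and -0.33 for SiREV1#2. RPA3, the small subunit, had -1.16, -0.09 and 0.01 for SiREV1#1 and 0.17, -0.13 and 0.12 for SiREV1#2.

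FEN1, the nuclease that trims Okazaki fragment flaps, was at 34.3, 22.8 and 22.8 FPKM in Scramble, 19.3, 15.5 and 16.2 after SiREV1#1, and 31.4, 15.6 and 16.96 after SiREV1#2. All SiREV1#1 libraries were below Scramble, and FEN1 fell by 0.55 there (SE 0.14, edgeR with the block, adjusted p = 0.047). LIG1, the ligase that seals the fragments, had no overlap between SiREV1#1 and Scramble either, with pair log2 ratios of -0.76, -0.16 and -0.28.

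All 4 genes of nucleotide supply were lower in all 3 pairs of both siRNAs. TK1, the thymidine kinase of cycling cells, was at 53.6, 41.2 and 38.0 FPKM in Scramble, 26.9, 30.03 and 27.9 after SiREV1#1, and 35.8, 24.0 and 24.5 after SiREV1#2. No siRNA library reached the lowest Scramble library, and TK1 fell by 0.55 after SiREV1#1 (SE 0.15, edgeR with the block, adjusted p = 0.0489). In limma-trend with the block it also fell after SiREV1#2, by 0.66 (adjusted p = 0.0305). TYMS, which makes thymidylate, was at 87.9, 70.0 and 69.1 FPKM in Scramble, 43.2, 52.5 and 53.9 after SiREV1#1, and 61.9, 29.9 and 27.7 after SiREV1#2. All siRNA libraries were below Scramble, and the lowest were SiREV1#2 replicates 2 and 3. It fell by 1.02 after SiREV1#2 in limma-trend with the block (adjusted p = 0.0395), and exons of the opposite strand, mainly ENOSF1 and TYMSOS, cover 46.6% of its exon bases. RRM1 and RRM2 encode the subunits of ribonucleotide reductase, and RRM1 had all siRNA libraries below Scramble while RRM2 overlapped.

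The G1/S cyclins and the phosphatase CDC25A went different ways. CCNE1, the cyclin E1 that activates CDK2, was at 18.0, 7.01 and 6.62 FPKM in Scramble, 14.8, 7.63 and 6.46 after SiREV1#1, and 6.58, 4.94 and 4.39 after SiREV1#2. SiREV1#1 overlapped Scramble, and SiREV1#2 lay below it in all 3 libraries, most of all in replicate 1. In edgeR with the block CCNE1 did not pass for SiREV1#1 (-0.01) or SiREV1#2 (-0.95, adjusted p = 0.0743), but the siRNAs differed by 0.94 (SE 0.22, adjusted p = 0.0259). CCNE2, cyclin E2, had the lowest level of all members, at 1.85, 0.35 and 0.35 FPKM in Scramble, 0.37, 0.18 and 0.11 after SiREV1#1, and 1.6, 0.46 and 0.41 after SiREV1#2. It was the member with a mean FPKM below 1, and SiREV1#1 replicate 1 overlapped Scramble replicates 2 and 3. In edgeR with the block it fell by 1.81 after SiREV1#1 (SE 0.36, adjusted p = 0.018), and the siRNAs differed by -1.77 (SE 0.39, adjusted p = 0.0199). Exons of other genes on the opposite strand cover 37.1% of its exon bases.

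CDC25A, the phosphatase that activates CDK2 at the start of S phase, was higher after both siRNAs. Its FPKM was 3.64, 2.48 and 2.79 in Scramble, 4.6, 3.88 and 4.47 after SiREV1#1, and 6.32, 4.95 and 4.28 after SiREV1#2. All 6 siRNA libraries were above all 3 Scramble libraries, and it was the member for which this held with both siRNAs. CDC25A rose by 0.58 after SiREV1#1 (SE 0.13, edgeR with the block, adjusted p = 0.0299) and by 0.89 after SiREV1#2 (SE 0.15, adjusted p = 0.0331). Without the block neither change passed in edgeR. With the block both calls were lost on leaving out any 1 Scramble library or SiREV1#1 replicate 3. That of SiREV1#1 was also lost without SiREV1#1 replicate 2. The log2 fold changes stayed at 0.55 to 0.63 for SiREV1#1 and 0.85 to 0.96 for SiREV1#2.

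Replicate 1 carried more RNA of many members than replicates 2 and 3 of the same group. In all 3 groups 25 of 50 members were higher in replicate 1, against 29.7% of genes with a mean FPKM over 1, and 8 were lower, against 42.3%. More than 2-fold higher in every group were 6 members (CDC6, MCM3, MCM4, MCM7, GINS2 and POLE2), against 5.28% of genes with a mean FPKM over 1, and 0 members were more than 2-fold lower in every group, against 8.82% of genes. The median log2 ratio over the members was 0.59 in Scramble, 0.11 after SiREV1#1 and 0.62 after SiREV1#2, where that of all genes was -0.05, -0.23 and -0.09. By the median of the groups the 6 members most shifted were MCM4 (2.08), POLE2 (1.81), CDC6 (1.68), CCNE2 (1.67), MCM3 (1.64) and GINS4 (1.56). For MCM4 the log2 ratio was 2.08 in Scramble, 1.45 after SiREV1#1 and 2.83 after SiREV1#2. The highest ratio was in SiREV1#2 and the lowest in SiREV1#1 for MCM2 to MCM7 without exception. POLE2 went another way, with 1.53, 1.83 and 1.81. At the other end, RFC1 was lower in replicate 1 (-0.52, -0.71 and -0.77), as was POLA1, the catalytic subunit of polymerase alpha (-0.56, -1.39 and -0.48). The labels do not say what replicate 1 shares across groups.

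**Figure D5:**
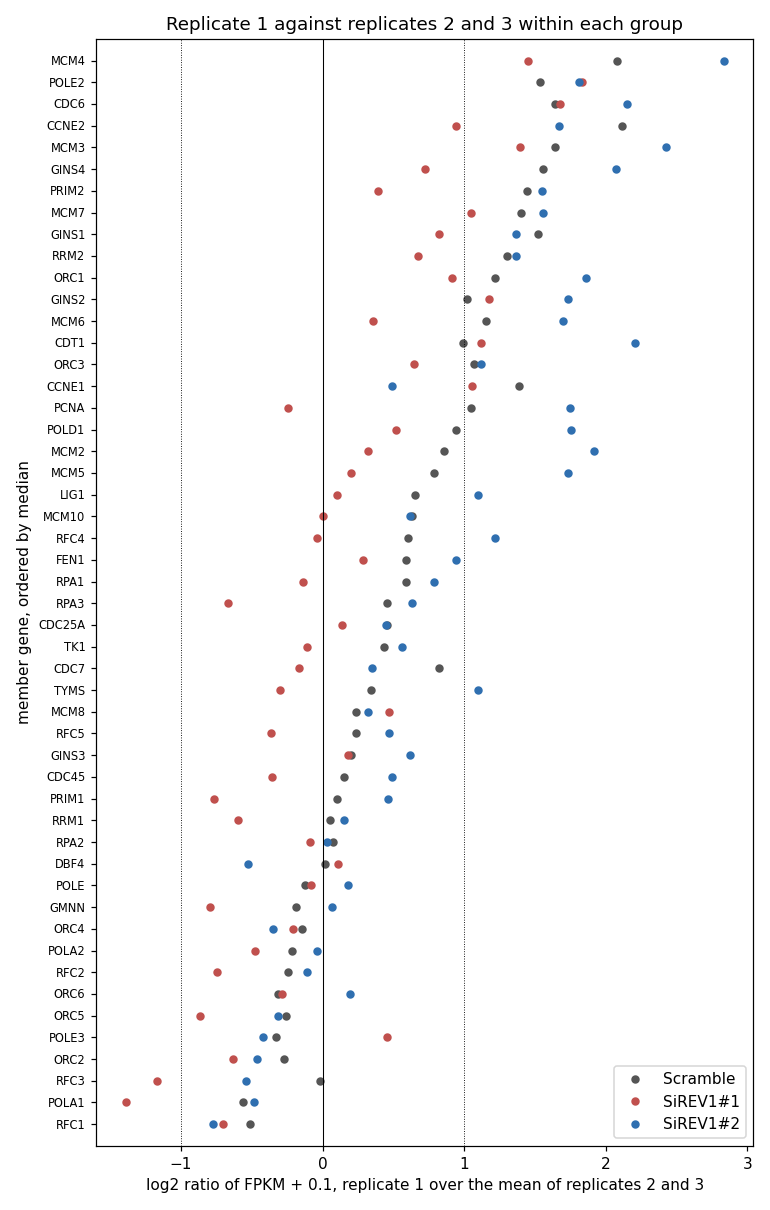
Log2 ratio of FPKM + 0.1 of replicate 1 over the mean of replicates 2 and 3 in each group, for the 50 members ordered by the median of the 3 groups, with dotted lines at 2-fold. MCM4 is at the top (median 2.08) and RFC1 at the bottom (median -0.71).

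Other genes of replication and the cell cycle were counted on the same scales. Over all genes with a mean FPKM over 1, 35.5% were lower in all 3 pairs of SiREV1#1 and 29.7% in those of SiREV1#2. With the block in edgeR, 6.96% and 1.41% of the genes tested fell. Of 26 further replication genes 20 were lower in all 3 pairs of SiREV1#1 and 14 in those of SiREV1#2, and with the block in edgeR 7 fell after SiREV1#1 and 0 after SiREV1#2. Those named by the smallest p were DONSON, a replisome factor (-0.75), MCM9, the partner of MCM8 (-0.95), CLSPN, a checkpoint mediator (-0.69), and POLD3, a subunit of polymerase delta (-0.92), each after SiREV1#1. Of 16 genes of nucleotide supply and chromatin assembly, 12 were lower in all pairs of either siRNA. In this list UHRF1, which guides maintenance methylation behind the fork, fell by 0.93 after SiREV1#1 and by 1.62 after SiREV1#2 (edgeR with the block, adjusted p = 0.00515 and 0.00753). CHAF1A, the large subunit of the histone chaperone CAF-1, fell by 1.47 after SiREV1#2 (adjusted p = 0.0112, edgeR with the block).

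Of 18 G1/S control genes, 8 were lower in all pairs of either siRNA, where 35.5% and 29.7% of genes were, and their median log2 ratios were -0.14 and -0.16. CDC34, the ubiquitin-conjugating enzyme of SCF ligases, was at 41.2, 40.6 and 37.3 FPKM in Scramble, 34.5, 49.3 and 48.0 after SiREV1#1, and 8.72, 8.11 and 7.63 after SiREV1#2. All SiREV1#2 libraries were far below both other groups, and CDC34 fell by 2.25 there (SE 0.18, edgeR with the block, adjusted p = 0.00481). The kinase CDK6 and CDC25C, a phosphatase known for mitotic entry, fell after SiREV1#1, by 0.77 and 0.76 in that test.

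The G2/M genes, whose peak comes after that of the members, were lower too. All 18 were lower in all 3 pairs of SiREV1#1 and 11 in those of SiREV1#2, where 35.5% and 29.7% of genes were. With the block in edgeR 9 fell after SiREV1#1 and 1, CDC20, after SiREV1#2, where 6.96% and 1.41% of genes fell. CDK1, the mitotic kinase, was at 57.6, 82.7 and 89.8 FPKM in Scramble, 14.6, 29.97 and 30.8 after SiREV1#1, and 37.9, 74.2 and 71.6 after SiREV1#2. Its SiREV1#1 libraries were below both other groups, by 1.58 on the log2 scale against Scramble (SE 0.13, edgeR with the block, adjusted p = 0.00108). Replicate 1 was the lowest library of each group for CDK1, opposite to MCM4, but the highest of each group for CDC20 and PLK1. Of the 18 genes, 10 were lower in replicate 1 in all 3 groups and 2 were higher, where 42.3% and 29.7% of genes were. Of 8 housekeeping genes, 1 was lower in all pairs of SiREV1#1 and 3 in those of SiREV1#2, among them ACTB, cytoplasmic actin, at 2771, 2855 and 2701 FPKM in Scramble and 1307, 1287 and 1288 after SiREV1#2. After SiREV1#1 ACTB was higher instead, at 4095, 3726 and 3593 FPKM. Of the other cell types' markers, 8 of 9 were found and their summed FPKM was 19.0 to 83.8 per library, nearly all of it CD68. That sum was 40.2, 83.8 and 49.5 in replicate 1 of Scramble, SiREV1#1 and SiREV1#2 and 19.0 to 24.8 in the other libraries, and its part in the values of replicate 1 was not tested.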

How the data were processed

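RNA sequencing of A549 cells gave 9 libraries, 3 each for Scramble, SiREV1#1 and SiREV1#2, grouped by their labels. For each library the authors deposited expected counts per gene (estimated read counts without normalization, 42.6% of them not whole) and FPKM values rounded to 2 decimals. The submitters' processing notes name StringTie 1.3.3b and hg38. The aligner, the annotation and the role of each tool are not given in the sources used here.

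The members, lists and tests were chosen with earlier results of these data known. Expected counts were rounded, filtered with filterByExpr (14205 genes, all 50 members), scaled by TMM and tested with the quasi-likelihood F test of edgeR 4.0.16 (R 4.3.3) fitting all groups jointly and adjusting p-values over all genes by Benjamini-Hochberg. The biological coefficient of variation was 0.412, and 0.161 with the replicate block. The numbers were taken as pairing because same-numbered libraries deviated together in all 9 pairs (r 0.732 to 0.925 over genes). The differences between replicates 2 and 3, however, correlated by only -0.163 to 0.135 between groups, so the block mainly takes up replicate 1. Alternatives were DESeq2 1.42.0, limma 3.58.1 (limma-trend on log2(FPKM + 0.1) or log2(FPKM + 1), 11429 genes with a mean FPKM over 1), other scalings and filters, and leaving out libraries. The log2(FPKM + 0.1) scale understates changes of low genes. Fits were tested on simulated data. Named in full were members past an adjusted p of 0.05 in edgeR, at most 12 per comparison, PCNA, RPA2, CCNE1, CDC6, and the 6 most shifted in replicate 1, with up to 4 genes of each other list. Other members given by library (ORC2, ORC6, MCM2, POLD1, TYMS) were picked after their values were seen. RefSeq promoters matched 44 members. Shared 50-base words and opposite exons come from GENCODE 29.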

Additional observations from a re-analysis of the deposited data

Results flagged for a closer look

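For 4 members the effects of SiREV1#1 and SiREV1#2 differed in the direct comparison of the siRNAs (edgeR with the replicate block, adjusted p under 0.05). The log2 difference, SiREV1#1 minus SiREV1#2, was -1.77 for CCNE2, 0.94 for CCNE1, -0.58 for RPA2 and -0.58 for RFC1. In this comparison 17.6% of all genes passed. Without the block 0 members passed in edgeR. Limma-trend on FPKM with the block called 5 of 49 members, among them RPA2, RFC1 and CCNE1, where 4140 of 11429 genes passed. CCNE2 was not tested there. Each of the 4 edgeR calls was lost on leaving out some of the 8 count libraries. RPA2 passed only without SiREV1#1 replicate 1 and was lost without each of the other 7 (differences of -0.63 to -0.53). RFC1 was lost in 5 of 8 cases, without Scramble replicate 2 or 3, SiREV1#1 replicate 2 or 3, or SiREV1#2 replicate 2 (-0.70 to -0.45 over all 8). CCNE1 was lost without Scramble replicate 3, SiREV1#1 replicate 3 or SiREV1#2 replicate 1 (0.56 without the last), and CCNE2 without SiREV1#1 replicate 1 (-1.48) or SiREV1#2 replicate 1 or 2. Groups of 3 libraries were not searched for outlying libraries.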

How the results depend on the processing

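The number of members called rests on the replicate block and on single libraries, and depth limits CCNE2 most. With 2 siRNAs sharing the Scramble libraries, 1 Scramble library moves both comparisons. Without the block edgeR called 0 members in each comparison (SiREV1#1 against Scramble, SiREV1#2 against Scramble, SiREV1#1 against SiREV1#2), and the replicate block gave 12, 1 and 4. DESeq2 gave 1, 0 and 1. The counts as deposited, limma-trend on log2(FPKM + 0.1) and on log2(FPKM + 1) each gave 1 between the siRNAs. Of all genes 718 of 13945, 606 of 11429 and 595 of 11429 passed there. Replicates 2 and 3 only gave 40, 41 and 26 of 49 members, where 6362, 6188 and 7890 of 11271 genes passed. Leaving out a library gave 0 to 0 without the block, 0 to 19, 0 to 9 and 1 to 9 with it, and 0 to 29, 0 to 32 and 3 to 15 in limma-trend with it. Without SiREV1#1 replicate 1 edgeR with the block called 3432, 1650 and 4021 of 14118 genes. At the highest limma-trend counts 2982 of 11384, 3740 of 11395 and 5970 of 11395 genes passed. For SiREV1#2 with the block the edgeR count was 9 without SiREV1#1 replicate 1. It was 0 without any 1 Scramble library or SiREV1#1 replicate 3, where at most 105 of 14125 genes passed. Between the siRNAs the count was 9 without SiREV1#1 replicate 1. It was 2 without Scramble replicate 2 or SiREV1#1 replicate 2, where 1212 of 14158 and 1373 of 14142 genes passed. It was 1 without Scramble replicate 3 or SiREV1#1 replicate 3, where 1372 of 14158 and 1371 of 14125 did.

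With the replicate block, DESeq2 called 23 members for SiREV1#1 and 5 for SiREV1#2, where 2223 and 833 of 18044 genes passed. Limma-trend on log2(FPKM + 0.1) called 21 and 9, where 2264 and 1300 of 11429 genes passed. On log2(FPKM + 1) it called 22 and 10, where 2249 and 1291 of 11429 did. Without a filter it called 5 for SiREV1#2, where 937 of 18123 genes passed. Alternatives added after seeing the data were leaving out libraries in limma-trend and edgeR with the block under other scalings or filters. The block with the counts as deposited and the block with an absolute log2 fold change above 1 were also added then. The counts as deposited gave 21, 10 and 8 members, where 2683, 1918 and 4972 of 13945 genes passed. The fold change threshold gave 2, 0 and 1, and its share over all genes was not counted. The members' median log2 fold change without the block was -0.52 and -0.14 for the siRNAs, -0.18 and 0.08 without Scramble replicate 1, and for SiREV1#2 0.21 without its replicate 2 and -0.73 without its replicate 1. Rescaling each library's median moved the members over 2-fold higher in replicate 1 from 6 to 10, and those lower in replicate 1 in every group from 8 to 5.

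Among single genes, 23 of the values without the block and 8 with it changed sign. For CDC6 after SiREV1#2 (0.06 without the block), the counts as deposited gave -0.30, limma-trend -0.49 and -0.41, and replicates 2 and 3 only -0.66. For PCNA between the siRNAs (-0.18), the same gave 0.12, 0.32 and 0.32, and 0.99. Replicates 2 and 3 only gave 0.011 for PCNA and 0.043 for CCNE1 after SiREV1#1. Leaving out a library changed other signs. Without the block the log2 fold change after SiREV1#1 ran from -0.57 to 0.58 for CCNE1, -1.58 to 0.11 for CDC6, -1.08 to 0.073 for MCM7 and -0.60 to 0.0072 for PCNA. After SiREV1#2 it ran from -1.44 to 0.83 for CDC6 and -1.42 to 0.39 for PCNA, and between the siRNAs from -1.64 to 0.77 and from -0.81 to 0.99 for these genes. With the block it ran from -0.16 to 0.15 for CCNE1 and -0.66 to 0.13 for PCNA after SiREV1#1, and for PCNA from -1.21 to 0.11 after SiREV1#2 and -0.44 to 0.87 between the siRNAs. Without the block, replicate 1 weighs more in SiREV1#2 than in the other groups of the count tests. The cause of the sign changes was not tested.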
